A study of Mus musculus with 16 samples.

Results

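The genes described here are those of the potassium channels: every gene symbol in the count tables that starts with Kcn, followed by lower-case letters and a digit, with pseudogene rows and 1 further symbol left out. The pattern took 97 of 43472 gene symbols. Of these, 92 encode a protein and 5 (Kcnq1ot1, Kcnab3os, Kcnd3os, Kcnmb4os1 and Kcnmb4os2) are noncoding RNAs named after a neighbouring channel gene. At least 1 read was counted for 92 of the 97, and 62 passed the filter on low counts in the Prepl comparison and 61 in the PWS-IC comparison. The rule uses names and no measured value, though it was set with earlier results of these data known.

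Potassium channels are membrane proteins that let potassium ions leave or enter a cell along their gradient, and in neurons they set the resting potential, end each action potential and limit how often the next one follows. Pore-forming alpha subunits carry the conducting path, and accessory subunits (cytoplasmic beta subunits, calcium-binding KChIPs, the single-pass MinK-related proteins) change where the channel sits and how it opens. Classes differ in what opens them: voltage in the Shaker to Shal, M-type and EAG-related families, calcium or sodium inside the cell in others, while two-pore channels leak at rest and inward rectifiers pass current best near the resting potential.

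RNA from mouse brain tissue was measured in 16 libraries, 4 in each of 4 groups: Prepl knockouts, wild types kept as their controls, PWS-IC deleted mice, and a separate set of wild types kept as controls for these. Prepl encodes an enzyme of the serine hydrolase type, lost in a form of congenital myasthenic syndrome, and PWS-IC is the imprinting centre on which paternal expression across the Prader-Willi region depends. The study asked which molecular changes the 2 mouse models share. The sources used here do not give strain, age, sex, brain region, the construction of either allele or the parent that passed on the deletion. Nor do they state that each replicate is its own animal; the p-values then describe only how these libraries spread, which may be technical.

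Reads in genes numbered 3477624 to 5852716 per library, of which 5568 to 12140 fell on potassium channel genes. The targeted genes matched the labels: Prepl was at 33.6 to 36.5 CPM (counts scaled by each library's reads in genes) in its wild types and 1.17 to 2.18 CPM in the knockouts, and Ndn, a paternally expressed gene of the Prader-Willi region, was at 543 to 566 CPM in the PWS-IC wild types and 2.17 to 6.56 CPM in the deleted mice. Judged from Xist and Y-linked genes, replicates 1 to 3 of the Prepl wild types were female and replicate 4 male, whereas the 4 knockouts were male; each PWS-IC group had 2 of either sex. Reads aligned outside any gene made up 15.98% to 19.6% in the Prepl wild types, 16.1% to 19.2% in the knockouts, 11.4% to 13.7% in the PWS-IC wild types and 17.7% to 20.1% in the deleted mice. Transcripts of mitochondrially encoded proteins took 5.85% to 6.12% of reads in the Prepl wild types, 6.67% to 8.32% in the knockouts, 5.21% to 6.22% in the PWS-IC wild types and 3.95% to 4.45% in the deleted mice. The 5 neuronal markers (Snap25, Syt1, Rbfox3, Tubb3 and Stmn2) summed to between 4086 and 4757 CPM in all 16 libraries, and none was at 0.

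What the alpha subunits share is the selectivity filter, the narrow part of the pore that admits potassium and holds back sodium. In the coding sequences of GENCODE M21, all 76 alpha subunit genes held 5 codons in the order threonine or serine, then valine, isoleucine, alanine, threonine, phenylalanine or leucine, then glycine, then tyrosine, phenylalanine or leucine, then glycine, and 0 of the 16 accessory genes did. Of 21660 mouse protein-coding genes with a complete coding sequence, 2.07% held this pattern. The 4 examples below, from genes on which the results turn, are printed 5′ to 3′ on the coding strand (GRCm38, the assembly mm10 denotes), with the 15 bases before the filter in lower case and the 5 filter codons in capitals.
Kcna6: gtggttacaatgaccACGGTAGGTTATGGG
Kcnma1: atggtcacaatgtctACAGTGGGTTATGGG
Kcnt1: atcgtgactttctcaACTGTGGGCTTCGGT
Kcnj8: attgaggttcaagtgACCATTGGGTTTGGA
The stretches lie at chr6:126738647-126738676 on the minus strand in exon 1 of 2 for Kcna6 and chr14:23528413-23528442 on the minus strand in exon 8 of 31 for Kcnma1. Those of Kcnt1 and Kcnj8 lie at chr2:25894352-25894381 on the plus strand in exon 11 of 32, and at chr6:142566448-142566477 on the minus strand in exon 3 of 3. The 30 bases of Kcna6 matched those of Kcnma1, a calcium-activated channel, at 24 positions and those of the inward rectifier Kcnj8 at 11. The counts, in contrast, come from the other end of the transcript. The libraries were made with Lexogen QuantSeq, which captures poly(A) tails and sequences near them. CPM was therefore not divided by transcript length. Ranks and shares between genes assume that each gene is captured at its tail and counted equally well there. That assumption was not tested, so they are approximate.

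Levels spanned more than 4 orders of magnitude. The most abundant row was noncoding: Kcnq1ot1, a long imprinted RNA transcribed from the paternal chromosome and antisense to Kcnq1, averaged 227 CPM over the 16 libraries. Among channel genes Kcnd2, the Shal subunit of the A-type current in dendrites, led with 200 CPM. Kcnq3, a subunit of the M-type channels that damp repetitive firing, averaged 87.4 CPM. Kcnk2, a two-pore leak channel opened by stretch and lipids, averaged 92.2 CPM (Kcnk3, an acid-sensitive one, 31.5 CPM), and Kcnma1, the pore of the large-conductance calcium-activated channel, 83.6 CPM.

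Voltage-gated alpha subunits of the Shaker to Shal families made up 33.1% of the summed CPM of the coding members, M-type channels 15.7%, two-pore channels 11.4%, large-conductance calcium-activated channels 10.1% and KChIPs 8.45%. Inward rectifiers contributed 5.51% with 14 genes, led by Kcnj3, a G-protein-gated channel (27.2 CPM), and Kcnj10, the potassium-buffering channel of astrocytes (16.1 CPM). EAG, ERG and ELK channels contributed 5.37%, led by Kcnh7 (31.1 CPM) and Kcnh1 (16.9 CPM). Kcnv1 (14.8 CPM) and Kcnf1 (6.95 CPM), which conduct only beside other alpha subunits, led the modifier class at 2.46%. Of the accessory classes, KChIPs, which bind Shal channels, were led by Kcnip1 (58.4 CPM) and Kcnip2 (38.4 CPM), and the large-channel subunit Kcnmb4, the neuronal beta subunit of Kcnma1, averaged 49.2 CPM. Kcne1l (21.6 CPM) and Kcne2 (2.91 CPM) led the MinK-related genes, Kcnab2 (22.4 CPM) the cytoplasmic beta subunits, Kcnt1 (16.8 CPM) the sodium-activated pair, and Kcnn2 (17.1 CPM) and Kcnn3 (10.4 CPM) the small-conductance calcium-activated channels.

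**Figure D1:**
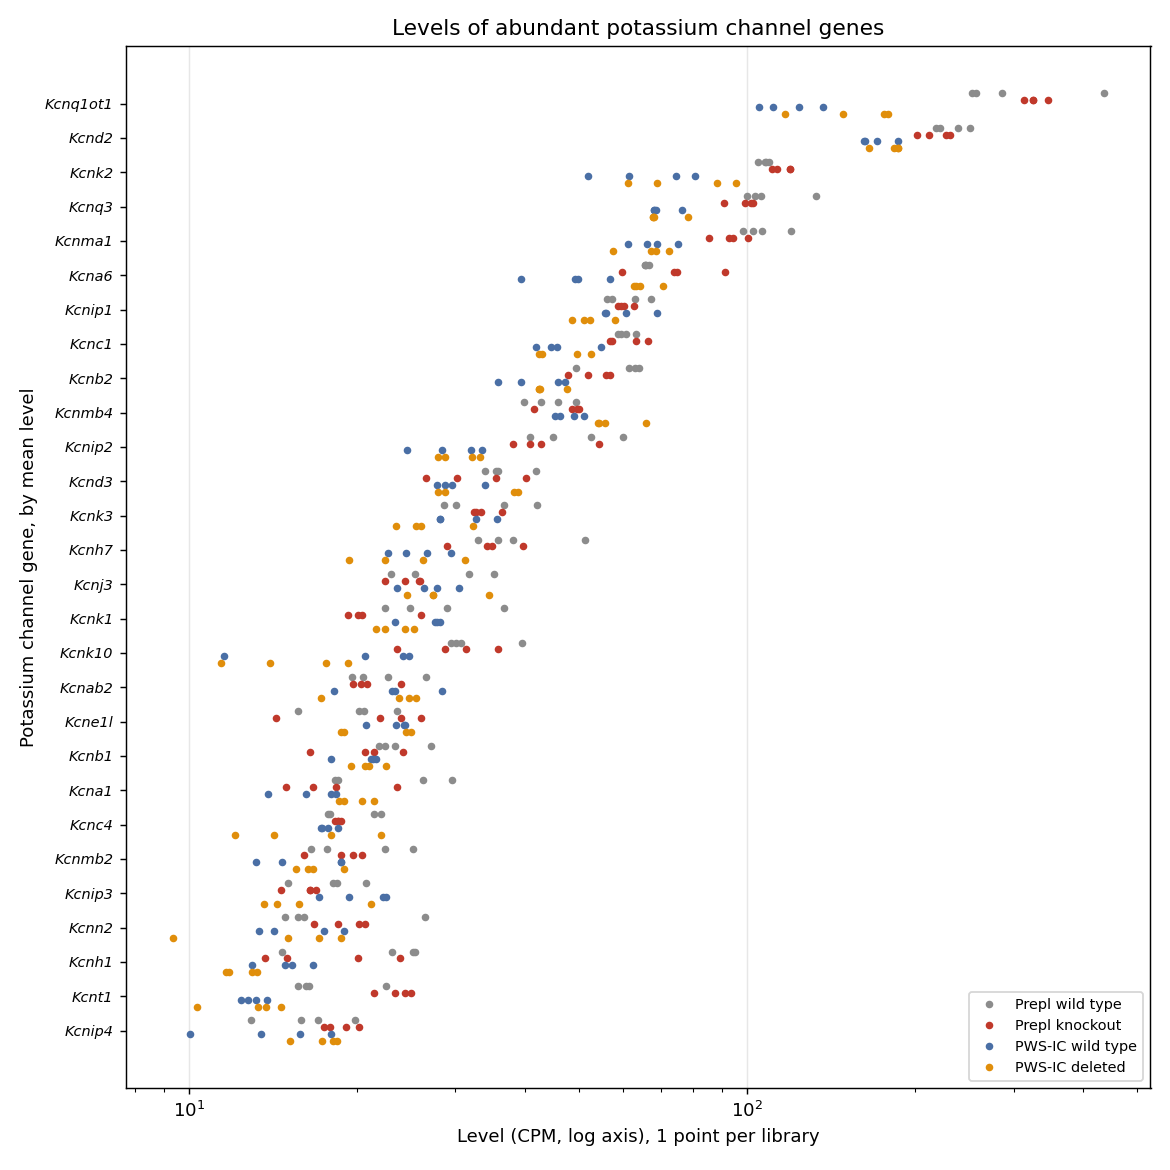
Level in CPM (log axis) of abundant potassium channel genes, ordered by their mean over 16 libraries, 1 point per library, coloured by group. Kcnq1ot1 and Kcnd2 lead with means of 227 and 200 CPM, and for Kcnq1ot1, Kcnk2, Kcnq3 and Kcnma1 all libraries of both PWS-IC groups lie left of all Prepl libraries.

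No read was counted in any library for 5 members: Kcnj1, Kcnk15, Kcnk16, Kcnk18 and Kcnmb3. Over the 81743866 reads in genes of all libraries, a count of 0 allows up to 0.0367 CPM, counting error only. Another 11 members had 1 to 10 reads in total. Among them was Kcna2, a Shaker subunit of axons, with 10 reads over the 16 libraries, beside 1588 for Kcna1 and 5177 for Kcna6 of the same family. A library primed at the tail counts a gene only as far as the annotation reaches its used poly(A) site, and whether that holds for Kcna2 was not tested.

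In the Prepl knockout no potassium channel gene passed the test: 0 of 62 members were called by edgeR's quasi-likelihood test at an adjusted p of 0.05, against 36 of 13722 genes, or 0.262%, in the same comparison (0.189% higher, 0.0729% lower). DESeq2 and limma voom also called 0. At an unadjusted p under 0.05 stood 7 members, 4 higher and 3 lower, where 9.43% of all genes did (4.92% higher, 4.51% lower). Of the 62 log2 fold changes 42 lay below 0, with a median of -0.11, beside a median of 0.00 over all genes, of which 50.1% lay above 0. All 6 EAG-related genes tested lay below 0 (median -0.17), as did 5 of 6 modifier alpha subunits (median -0.42). The median over the 62 members was -0.04 without replicate 1 of the wild types. With sex as a term the filter kept 67 members, and the median over those was 0.06. For 35 of the 62 members (56.5%; 69.7% of all genes) the 95% interval of the change lay within 1.5-fold in either direction.

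The smallest p in this comparison belonged to Kcnt1, the sodium-activated channel known for its gain-of-function mutations in childhood epilepsy. It measured 22.5, 15.7, 16.4 and 16.2 CPM in wild types 1 to 4 and 24.9, 24.4, 21.5 and 23.4 CPM in knockouts 1 to 4. All but wild type 1 lay below the knockouts, so the groups overlapped by that library alone. The log2 fold change was 0.46 ± 0.139 (SE, n = 4 per group; edgeR adjusted p = 0.229). Without wild type 1 it was 0.59, with an edgeR adjusted p of 0.0326, and Kcnt1 would then be called. That fit called 103 genes in all, beside 36 with every library.

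Wild type 1 also stood apart for other members. It held 436 CPM of Kcnq1ot1, against 286, 252 and 257 CPM in wild types 2 to 4, and 313 to 345 CPM in the knockouts. It had 38.0 CPM of Kcnv1, against 15.8 to 22.9 CPM in the other wild types and 16.1 to 19.9 CPM in the knockouts. Its share of reads outside genes, 19.6%, was the highest of its group. With that share as a covariate 0 members were called in this comparison. The part of the share in the values of this library was not tested. Without wild type 1, Kcnq1ot1 went from a log2 fold change of 0.13 ± 0.115 (edgeR adjusted p = 0.781) to 0.34 (edgeR adjusted p = 0.00646). Kcnv1 went from -0.44 ± 0.191 (edgeR adjusted p = 0.472) to -0.15, and was at 0.15 with sex as a term.

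Among M-type channels, Kcnq5, a partner of Kcnq3 in cortex, measured 19.4, 16.4, 16.9 and 15.6 CPM in the wild types and 13.0, 10.1, 12.1 and 13.3 CPM in the knockouts. Every knockout lay below every wild type. The log2 fold change was -0.45 ± 0.153, with an edgeR adjusted p of 0.306. Knockouts lay below all wild types for 2 members in all, and Kcnk2 was the single member whose knockouts all lay above the wild types (105 to 109 CPM against 111 to 119 CPM; 0.14 ± 0.0700). Over all genes the groups did not overlap in 5.69%, with 1.6% above and 4.09% below.

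The other members named for their small p did not separate the groups. Shaker genes were among them: Kcna5 had 0.762 to 2.41 CPM in wild types and 2.38 to 3.38 CPM in knockouts, 29 and 58 reads in all (log2 fold change 1.08 ± 0.384, edgeR adjusted p = 0.35). Kcna6 had 65.5 to 66.6 CPM in wild types and 59.7 to 91.2 CPM in knockouts (0.22 ± 0.0965, edgeR adjusted p = 0.479). Kcnk1, a weakly conducting two-pore channel, had 22.5 to 36.7 and 19.3 to 26.0 CPM (-0.36 ± 0.147), the beta subunit gene Kcnab3 6.72 to 11.2 and 9.52 to 11.7 CPM (0.41 ± 0.196), and Kcnab1 8.79 to 11.9 and 6.43 to 10.1 CPM (-0.40 ± 0.196). With sex as a term Kcnab3 was at -0.05 and Kcnk1 at -0.04. Since 3 of 4 wild types were female and all knockouts male, sex and genotype can be told apart here through 1 male wild type only.

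Of the markers of other cells, 2 were called in the knockout, 1 of Purkinje cells and 1 of blood, both lower. The 5 Purkinje cell markers summed to 115 to 154 CPM in wild types and 87.8 to 107 CPM in knockouts, and of 4 tested 1 (Car8) was called lower and none higher. Blood markers summed to 660 to 1145 and 628 to 833 CPM. Their part in the channel values was not tested. In bulk tissue, fewer cells of a type and less RNA per cell cannot be told apart.

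In the PWS-IC deletion 1 of 61 members was called, Kcna6, where edgeR called 616 of 13636 genes, or 4.52% (2.96% higher, 1.55% lower). At an unadjusted p under 0.05 stood 8 members, 6 higher and 2 lower, beside 18.2% of all genes (9.97% higher, 8.24% lower). The median log2 fold change of the members was -0.01, as over all genes, with 30 above 0 and 31 below, where 47.6% of all genes lay above. Deleted mice all lay above the wild types for 5 members, among them Kcna6, Kcnmb4 and Kcna1, and all below for 1 (Kcnj2); over all genes 11.8% did not overlap, 6.7% above and 5.06% below. The 95% interval lay within 1.5-fold for 30 of the 61 members (49.2%; 56.4% of all genes).

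Kcna6 encodes a Shaker alpha subunit that assembles with other Shaker subunits into the low-threshold, slowly inactivating currents of axons and terminals. It measured 39.3, 56.8, 49.1 and 49.7 CPM in PWS-IC wild types 1 to 4 and 63.3, 62.7, 70.7 and 64.4 CPM in deleted mice 1 to 4. No deleted library reached down to a wild type. The means were 48.7 ± 7.19 and 65.3 ± 3.71 CPM (SD, n = 4), a log2 fold change of 0.43 ± 0.113 (SE; 95% interval 0.19 to 0.66; edgeR adjusted p = 0.0357). The call did not hold up against the loss of single libraries. In 7 of 8 fits without 1 library the edgeR adjusted p was between 0.0568 and 0.105. Log2 fold changes in these 7 were 0.34 to 0.44. Without wild type 2 the edgeR adjusted p was 0.00953, at a log2 fold change of 0.52. Kcna6 was called in 11 of 19 other settings, the fits without 1 library included. With the outside-gene share of reads as a covariate the change was 0.83 and not called. The ranges of this share in wild types and deleted mice do not overlap. That fit, which called 4 genes in all, cannot tell the share apart from genotype.

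The same gene was at 65.5 to 66.6 CPM in the 4 Prepl wild types, which is the level of the PWS-IC deleted mice rather than of the PWS-IC wild types.

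Kcna6 lies at chr6:126708329-126740674 on the minus strand (GRCm38), next to 2 other Shaker genes, Kcna1 (chr6:126640397-126646384) and Kcna5 (chr6:126532551-126535412). Kcna1, mutated in episodic ataxia, measured 17.9, 18.4, 13.8 and 16.2 CPM in the PWS-IC wild types and 18.5, 21.4, 20.4 and 19.0 CPM in the deleted mice. The lowest deleted library lay just above the highest wild type. Its log2 fold change was 0.26 ± 0.155 (edgeR adjusted p = 0.401), and that of Kcna5 -0.46 ± 0.373 (edgeR adjusted p = 0.562), so the 3 neighbours gave values on both sides of 0. Exons of Kcna6 share 2355 of 5945 bases with Gm26673 on the opposite strand, but that row held 3 reads over the 16 libraries, and 0 of 1028 windows of 50 bases from the last 500 bases of Kcna6 transcripts occur in another gene.

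**Figure D2:**
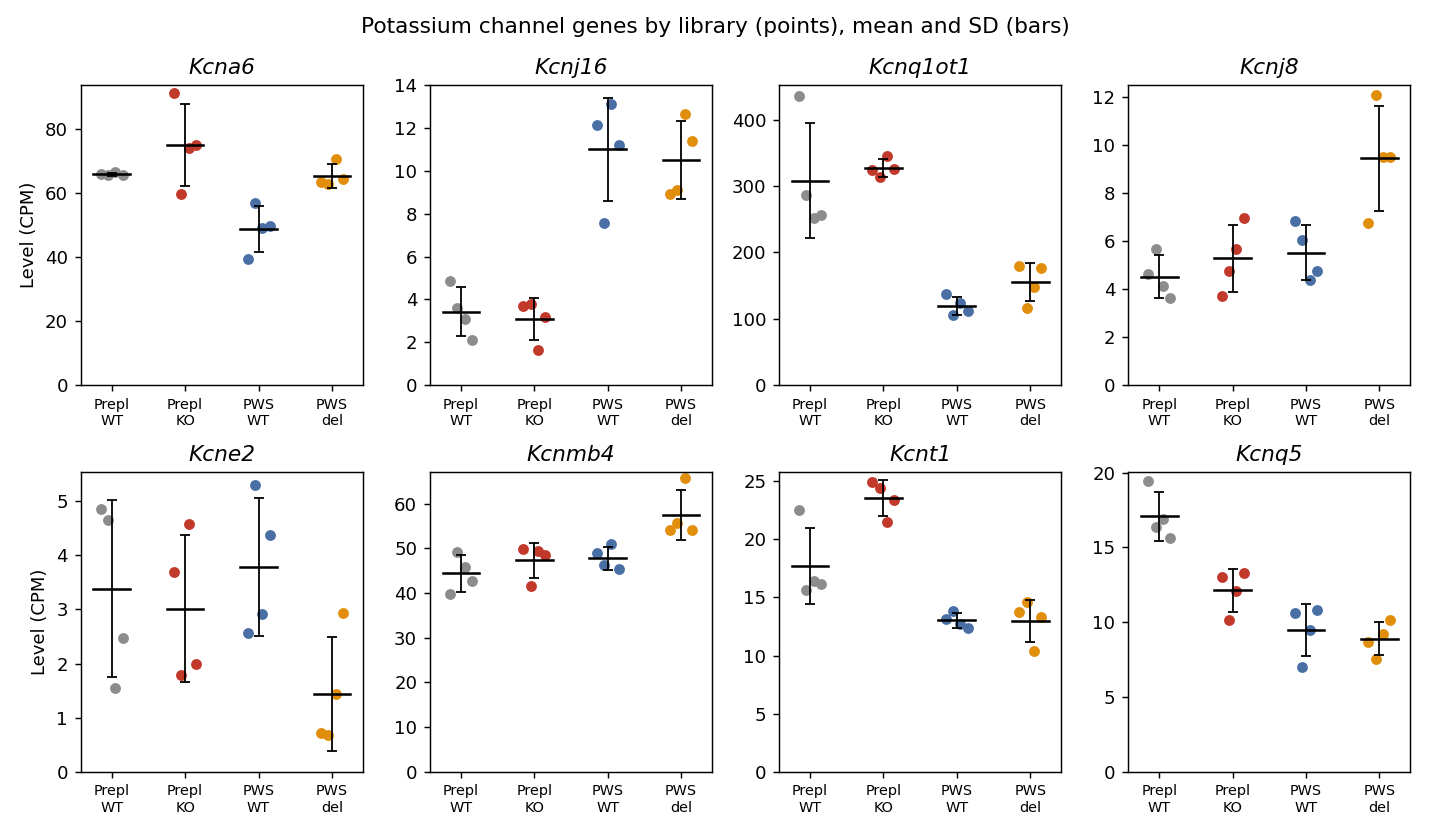
Level in CPM of 8 potassium channel genes in each library (points), with the mean and SD of each group of 4 (bars), all axes from 0. For Kcna6 the 4 PWS-IC wild types lie below the deleted mice and below the Prepl libraries, and for Kcnj16 both PWS-IC groups lie above both Prepl groups.

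Kcnq1ot1 is the noncoding RNA through which the paternal copies of neighbouring genes are kept silent. It measured 137, 105, 124 and 111 CPM in the PWS-IC wild types and 179, 117, 148 and 176 CPM in the deleted mice. Deleted mouse 2 lay among the wild types and the other deleted mice above them. The log2 fold change was 0.39 ± 0.118 (edgeR adjusted p = 0.0653), and called in 6 of 19 other settings, among them DESeq2 (0.0481). With the outside-gene share of reads as a covariate the log2 fold change was -0.63 and not called. The ranges of that share in wild types and deleted mice do not overlap, so the fit cannot tell it apart from genotype. Deleted mouse 2 also had the lowest share of reads outside genes of its group, 17.7%. Kcnq1 itself, on the opposite strand, held 52 reads in all and was not tested.

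Kcnj8 encodes the pore of the ATP-sensitive channel of vessel-wall cells, opened when energy runs low. It measured 6.83, 6.06, 4.37 and 4.76 CPM in the wild types and 6.74, 12.1, 9.49 and 9.49 CPM in the deleted mice. One deleted library lay within the wild-type range and 3 lay above it. The log2 fold change was 0.78 ± 0.244 (edgeR adjusted p = 0.075, 0.0438 in 1 fit of all 16 libraries and 0.0358 with a sex term). Its regulatory partner Abcc9, the neighbouring gene, was at 0.07 ± 0.263. Mural cells express both genes. Of 5 of their markers tested 0 were called higher and 1 (Vtn) lower, and their summed level was 130 to 143 CPM in wild types and 111 to 133 CPM in deleted mice.

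Kcne2, a MinK-related accessory subunit that choroid plexus epithelium expresses strongly, went the other way. It measured 2.56, 5.30, 2.91 and 4.38 CPM in the wild types and 0.722, 0.684, 1.44 and 2.93 CPM in the deleted mice, 82 and 28 reads in all. Deleted mouse 4 lay within the wild-type range and the other 3 below it. The log2 fold change was -1.29 ± 0.436 (edgeR adjusted p = 0.102), and -1.99 without deleted mouse 4 (edgeR adjusted p = 0.0283). It turned to 0.57, not called, when the outside-gene share entered as a covariate, a fit that cannot tell this share apart from genotype. Of 7 choroid plexus markers tested 3 (Ttr, Sostdc1 and Enpp2) were called lower and none higher. The 8 listed markers summed to 1864, 2228, 1448 and 1569 CPM in wild types 1 to 4 and 622, 595, 434 and 1763 CPM in deleted mice 1 to 4, with deleted mouse 4 again the one in the wild-type range. Their part in the Kcne2 value was not tested.

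**Figure D3:**
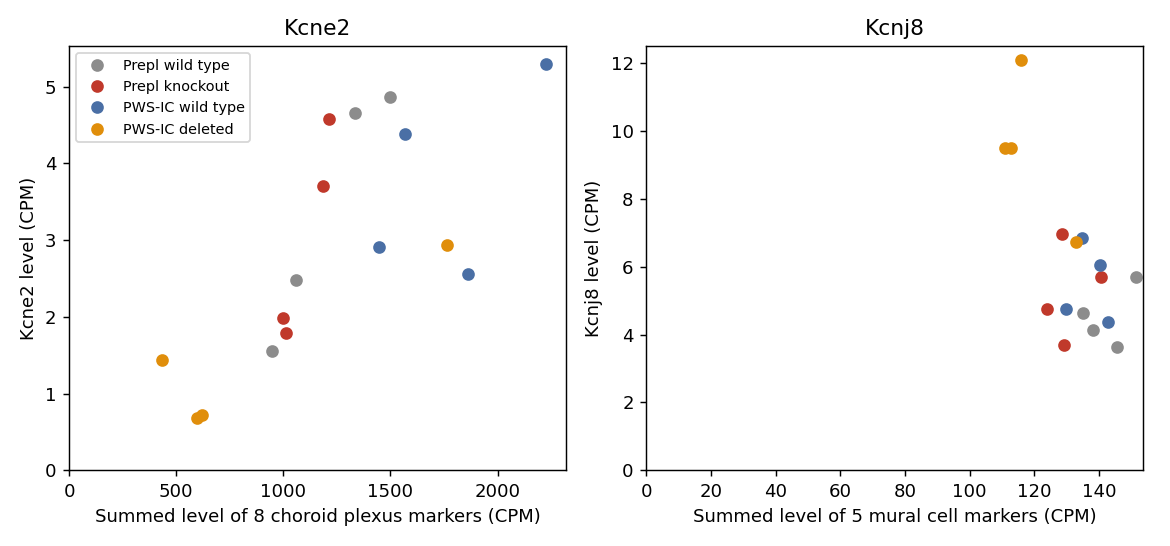
Level of Kcne2 against the summed level of 8 choroid plexus markers (left) and of Kcnj8 against the summed level of 5 mural cell markers (right), in CPM, 1 point per library, coloured by group. On the left, 3 deleted mice sit at the lowest marker sums, 434 to 622 CPM, with Kcne2 at 0.684 to 1.44 CPM; on the right, 3 of the 4 deleted mice have the highest Kcnj8 levels.

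Other non-neuronal marker lists were lower in the deleted mice too, and their part in the channel values was not tested. Of 6 meningeal fibroblast markers 5 were called lower (390 to 661 CPM summed in wild types, 307 to 327 CPM in deleted mice), and of 5 blood markers 4 (1796 to 3970 and 1203 to 1629 CPM). One marker each of oligodendrocytes, microglia and striatal neurons was called lower, and none of neurons at large, astrocytes, oligodendrocyte precursors, endothelium, cerebellar granule cells, cortical and hippocampal neurons, Purkinje cells or hypothalamus.

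Other members with small p did not pass the test. Kcnmb4, which slows the gating of Kcnma1 channels and makes them resistant to iberiotoxin, had 45.3 to 51.0 CPM in wild types and 54.1 to 65.8 CPM in deleted mice (log2 fold change 0.27 ± 0.104, edgeR adjusted p = 0.166). Lower values came from Kcnj2, the classical inward rectifier (4.91 to 8.95 and 4.14 to 4.79 CPM; -0.58 ± 0.267, edgeR adjusted p = 0.247), and from the small-conductance channel Kcnn3 (7.57 to 11.2 and 4.79 to 8.45 CPM; -0.48 ± 0.233, edgeR adjusted p = 0.28). Among the most abundant channel genes, Kcnd2 had a log2 fold change of 0.09 ± 0.0842, Kcnq3 of 0.01 ± 0.0955 and Kcnma1 of -0.02 ± 0.103. The 95% intervals of these lay within -0.24 to 0.26. Kcnk2, also among the most abundant, was at 0.24 ± 0.136, with a wider interval of -0.05 to 0.52 (edgeR adjusted p = 0.386).

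**Figure D4:**
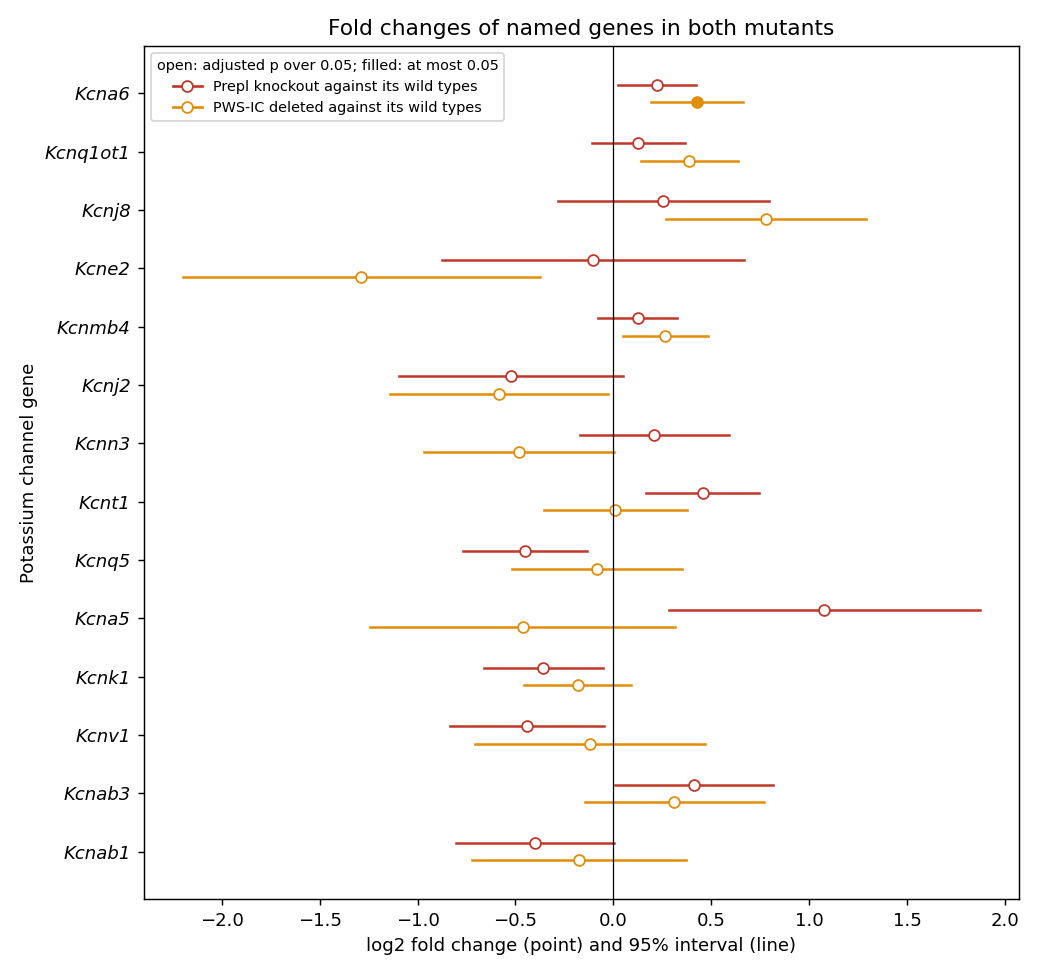
Log2 fold change (point) with its 95% interval (line) of potassium channel genes with small p in either comparison, Prepl knockout in red and PWS-IC deleted in orange, each against its own wild types; filled points have an edgeR adjusted p of at most 0.05. The single filled point is Kcna6 in the PWS-IC deletion, at 0.43.

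The share of channel genes that moved in the same direction in both models was that of all genes. The models have separate controls. Of the 61 members tested in both, 34 (55.7%) had fold changes of the same sign, 11 higher and 23 lower. Over all genes 7382 of 13237 (55.8%) did, 3509 higher and 3873 lower. Across these members the 2 sets of log2 fold changes had a Pearson r of 0.18 and a Spearman rho of 0.25. Over all genes these were 0.13 and 0.15. The values are given as a description since genes are not independent. Of the 61 members 1, Kcna6, had an unadjusted edgeR p under 0.05 in both, higher in each, where 302 of 13237 genes did in either direction. The difference between the 2 effects was tested as a contrast over the 16 libraries. It called 0 of 62 members, beside 0.778% of all genes (0.292% higher, 0.486% lower), with edgeR, and DESeq2 and limma voom also called 0. At an unadjusted p under 0.05 were 4 members, beside 11.7% of all genes (5.96% higher, 5.7% lower). Of these, Kcna1 (0.56 ± 0.239, edgeR adjusted p = 0.337) had the higher value in the PWS-IC comparison. Kcna5 (-1.54 ± 0.542, edgeR adjusted p = 0.218) and Kcnn3 (-0.69 ± 0.294, edgeR adjusted p = 0.341) had the lower. For Kcna6 the 95% interval of the difference ran from -0.10 to 0.52.

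More members were called between the 2 wild-type groups than between either mutant and its controls. In the contrast of PWS-IC wild types with Prepl wild types 21 of 62 members were called, 2 higher and 19 lower, beside 24.4% of all genes, of which 12.3% were higher and 12.1% lower. The median over the members was -0.34, beside 0.00 over all genes, and 13 of the 62 lay above 0, where 49.9% of all genes did. At an unadjusted p under 0.05 were 29 members, 2 higher and 27 lower (36% of all genes, 18.1% higher and 17.9% lower). The groups did not overlap for 1 member higher and 22 lower (24.3% of all genes, 9.7% and 14.6%). Summed over the coding members, potassium channel RNA was at 1677 to 1905 CPM in the Prepl wild types and 1291 to 1404 CPM in the PWS-IC wild types. The Prepl knockouts had 1625 to 1728 CPM and the PWS-IC deleted mice 1332 to 1448 CPM. Each mutant group overlapped its own wild types, and the Prepl libraries all lay above the PWS-IC libraries. The origin of the mice and any batch cannot be told apart in this contrast. Sex was mixed in both groups, and 19 members were called with sex as a term. The outside-gene share of reads differs between these groups as well. Without single libraries 15 to 21 members were called, with the fewest, 15, without Prepl wild type 1 or PWS-IC wild type 1.

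By class, 5 of 13 voltage-gated alpha subunits, 2 of 4 M-type, 2 of 4 two-pore, 2 of 6 EAG-related and 2 of 6 modifier genes were called lower. The smallest p was that of Kcnq1ot1, at 252 to 436 CPM in the Prepl wild types and 105 to 137 CPM in the PWS-IC wild types (log2 difference -1.32 ± 0.133, edgeR adjusted p = 2.03e-08). Kcnma1 (98.1 to 119.8 and 61.2 to 75.2 CPM; -0.60 ± 0.0917), Kcnq3 (100.01 to 133 and 68.0 to 76.5 CPM; -0.60 ± 0.0914) and Kcnk2 (105 to 109 and 51.9 to 80.6 CPM; -0.63 ± 0.109) were lower without overlap. Kcnj16, an inward rectifier that pairs with Kcnj10 in glia, went against the rest: 4.86, 3.62, 3.10 and 2.10 CPM in the Prepl wild types and 12.1, 7.57, 13.1 and 11.2 CPM in the PWS-IC wild types. The groups lay far apart, with a log2 difference of 1.74 ± 0.253 (edgeR adjusted p = 8.67e-06). The Prepl knockouts held 1.65 to 3.77 CPM of it and the deleted mice 8.90 to 12.7 CPM. The other member called higher was Kcna5 (1.08 ± 0.387, edgeR adjusted p = 0.0392), whose groups overlapped. Markers of choroid plexus (3 of 7) and blood (5 of 5) were called higher in the same contrast, and 0 of 5 mural markers; their part in these values was not tested.

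**Figure D5:**
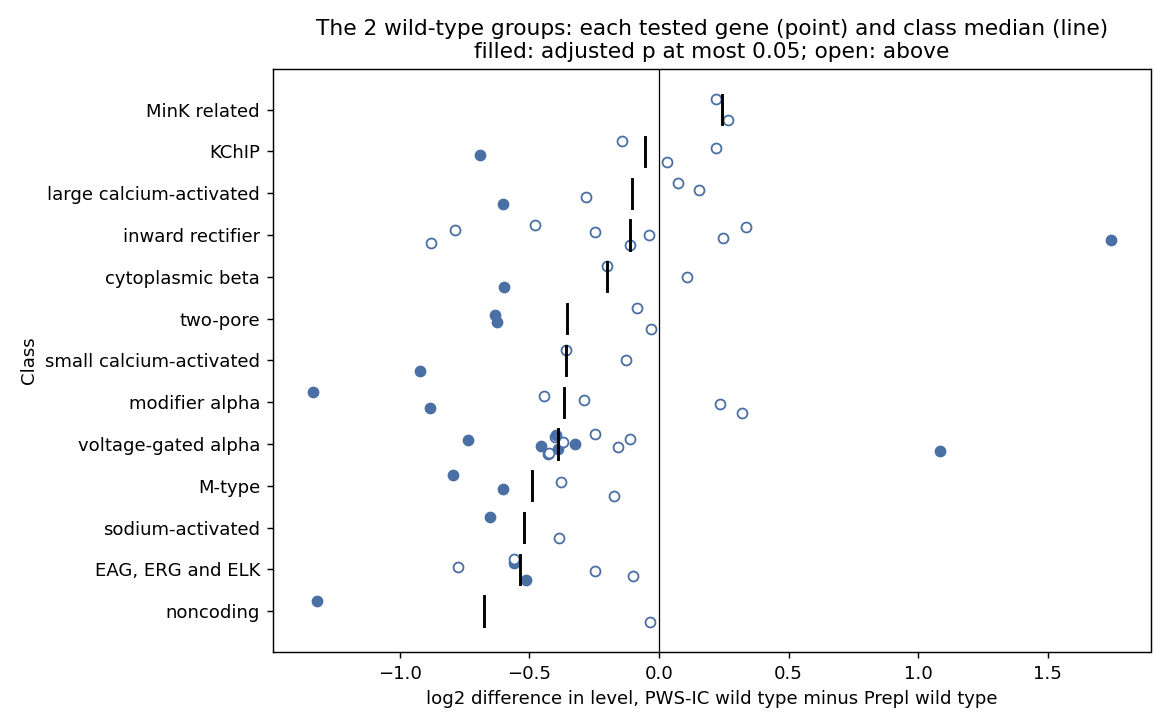
Log2 difference in level between PWS-IC wild types and Prepl wild types for each tested potassium channel gene (point) by class, with the class median (line); filled points have an edgeR adjusted p of at most 0.05. Most points lie left of 0, with Kcnj16 among the inward rectifiers at 1.74 the farthest to the right.

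A list of 53 genes that work with these channels (HCN channels, ATP-sensitive channel receptors, Kv-associated membrane and scaffold proteins, calmodulins, sodium-potassium pumps, potassium-coupled transporters) was chosen from general knowledge, and 47 were tested. In the Prepl knockout 0 were called (0.262% of all genes), with 1 higher and 4 lower at an unadjusted p under 0.05 (4.92% and 4.51% of all genes). The exchanger Slc24a3 was at -0.17 ± 0.0691 (edgeR adjusted p = 0.448). In the PWS-IC deletion 0 were called with edgeR (4.52% of all genes), with 5 higher and 3 lower at an unadjusted p under 0.05 (9.97% and 8.24%). The pump regulator Fxyd1, which choroid plexus also expresses, was at -0.92 ± 0.298 (edgeR adjusted p = 0.0855) and the pacemaker channel Hcn2 at 0.39 ± 0.159 (edgeR adjusted p = 0.189). Fxyd1 was called lower in 5 of 19 other settings and Hcn2 in 0. Without deleted mouse 4 Fxyd1 was at -1.32 (edgeR adjusted p = 0.0200). Between the wild-type groups 16 of the 47 were called, 2 higher and 14 lower, where 24.4% of all genes were, 12.3% higher and 12.1% lower.

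Of the noncoding members only Kcnq1ot1 and Kcnmb4os2 had enough reads for a test. Kcnmb4os2, which overlaps Kcnmb4 on the opposite strand, averaged 11.5 CPM, with log2 fold changes of 0.03 ± 0.205 in the Prepl knockout and -0.04 ± 0.202 in the PWS-IC deletion. Kcnmb4 shares 1048 of its 3324 exon bases with Kcnmb4os1 and Kcnmb4os2. The strand setting of the counting is not given, so whether reads of the 2 strands were kept apart there is not known. Of the end windows of Kcnmb4 27.6% also occur in another gene. Kcnd3os (52 reads over all libraries), Kcnab3os (10) and Kcnmb4os1 (3) were below the filter.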

How the data were processed

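The authors deposited raw counts, 1 table per library with 43472 gene symbols; 5 further totals without a gene were kept apart from library sizes and from every test. Per the submitters' processing notes, alignment and counting used HISAT2 and HTSeq on mm10. The sources used here do not state their versions, annotation or strand setting. Reads outside genes made up 11.4% to 20.1% of each table, ambiguous reads 0.39% to 0.479%, reads without a unique alignment 25.2% to 30.9% and unaligned reads 10.9% to 13.8%.

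CPM was computed here from these counts and the reads in genes. Tests used edgeR 4.0.16 (R 4.3.3): filterByExpr (minimum count 10, minimum total 15), TMM, the quasi-likelihood F-test, and a threshold of 0.05 on p-values adjusted by Benjamini-Hochberg across every gene in the fit. Each mutant was fitted with its own wild types; the difference of effects and the wild-type contrast used all 16 libraries. Standard errors are the absolute log2 fold change over the square root of F. Scripts were tested on simulated data.

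The members, the partner and marker lists and the tests were chosen with earlier results of these data known. Members were named by rule: those called in a mutant comparison and the 8 with the next smallest p, the 2 highest by CPM in each class (1 in classes under 4 genes), the 5 highest of all members, noncoding rows, and in the contrasts up to 5 called or the 3 smallest p. The partner list gave 3 genes per mutant comparison. Some genes that the rule takes are not reported here. Other names (Kcnk2 in the Prepl comparison, Kcna1 and Kcna5 as neighbours of Kcna6, Kcna5 in the wild-type contrast, Kcnn3 in the difference, Kcna2, Abcc9, the markers and overlapping genes) were chosen after their values were seen. Every pair of replicates differed beyond sampling noise (lowest chi-square per degree of freedom 2.52), so none was treated as a copy. All 97 members matched 1 GENCODE M21 gene. Alternatives were RLE and upper-quartile factors, other filters, DESeq2 1.42.0, limma 3.58.1 voom, a sex term, the replicate number, 1 fit of 16 libraries, no mitochondrially encoded genes, the share of reads outside genes, and leaving out each library.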

Additional observations from a re-analysis of the deposited data

Results flagged for a closer look

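In 13 of 133 sets of 4 libraries 1 library lay far from the other 3, by Dixon's test at 95%. A set was a named gene in a group with at least 40 reads. The nominal rate of the test is about 1 set in 20. Sets from the same libraries are not independent, and the rate over all genes was not computed. In the Prepl wild types, replicate 1 held 26.5 CPM of Kcnn2 (others 14.9 to 16.04) and 22.5 CPM of Kcnt1 (others 15.7 to 16.4), and replicate 3 held 13.3 CPM of Kcnj10 (others 19.2 to 20.3). In the Prepl knockouts, Kcnk1 was at 26.0 CPM in replicate 3 (others 19.3 to 20.4), Kcnmb4 at 41.5 CPM in replicate 2 (others 48.4 to 49.9) and Kcnv1 at 19.9 CPM in replicate 4 (others 16.1 to 16.5). In the PWS-IC wild types, Kcna5 was at 4.57 CPM in replicate 4 (others 2.08 to 2.39), Kcnk1 at 23.4 CPM in replicate 1 (others 27.6 to 28.2) and Kcnq3 at 76.5 CPM in replicate 2 (others 68.0 to 68.5). In the deleted mice, Kcnd2 was at 165 CPM in replicate 1 (others 183 to 186). Replicate 3 of the deleted mice, the library with the fewest reads, held 65.8 CPM of Kcnmb4 (others 54.1 to 55.6), 6.90 CPM of Kcnmb4os2 (others 11.9 to 12.4) and 78.2 CPM of Kcnq3 (others 67.7 to 68.1). No cause was tested for any of them.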

How the results depend on the processing

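The count of members called in the Prepl knockout was 0 in each setting tried except without wild type 1 (0 to 2 over the fits without 1 library, both higher). In the PWS-IC deletion the 1 called higher became 3 with no filter, 3 with DESeq2, 2 with limma voom, 3 with the replicate block, 3 in 1 fit of 16 libraries, 4 with a sex term and 0 with the outside-gene share of reads as a covariate; without single libraries it ranged from 0 to 2. The 0 called lower became 1 with no filter (Kcne2) and ranged from 0 to 1 without single libraries. Between the wild types the 2 called higher became 1 with no filter and 1 to 2 without single libraries. The 19 called lower became 14 to 20 without single libraries. Both directions together, the 21 called became 25 with upper-quartile factors, 22 with limma voom and 19 with no filter. The fits without 1 library, and the sex term, were added for the wild types after seeing the data. The replicate numbers did not pair the samples (correlation of same-numbered samples -0.07 to 0.05 in the Prepl groups and -0.02 to 0.18 in the PWS-IC groups); the block moved the genes called in the PWS-IC deletion from 616 to 1043, beside 945 with no filter, 999 in 1 fit of 16 libraries, 1177 with a sex term and 362 to 653 without single libraries. In the Prepl knockout 36 genes became 156 with no filter, 18 in 1 fit, 8 with a sex term, 60 with the covariate and 12 to 103 without single libraries. For the difference 112 became 222 with no filter, 169 with DESeq2 and 233 with a sex term, and 67 to 134 without single libraries. A sign change was counted where the main change was at least its standard error or the alternative was called. With a sex term, in the Prepl knockout, Kcnh1 turned to 0.34, Kcnj3 to 0.12, Kcnip2 to 0.14, Kcnv1 to 0.15 and Kcnab3 to -0.050. With the covariate, whose ranges in the PWS-IC groups do not overlap and which leaves 4 genes called, Kcnh1 turned to 0.028, Kcnip1 to 0.41, Kcnmb4 to -0.080, Kcne2 to 0.57, Kcnq1ot1 to -0.63 and Kcnj2 to 0.53. The cause was not tested. Depth limits the 35 members below the filter in both comparisons, of which no change can be stated.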
